A study of Mus musculus with 8 samples.

Results

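The high mobility group (HMG) genes encode abundant small chromatin proteins, and 7 of them (Hmga1, Hmgb1, Hmgb2, Hmgb3, Hmgn1, Hmgn2 and Hmgn3) are described here, out of 13388 genes in the deposited expression table. They were chosen by family name and by having a row in that table, and with earlier results of these data known. Counts of members called are therefore a description of the family and not independent evidence about it. Of their relatives, Hmga2 and Hmgb4 had no row. Hmgn5 had a row but was not among the 7 and is given further on with other HMG and HMG-box genes.

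The study measured RNA from progenitors and monocytes sorted from the bone marrow of wild-type mice and held for 6 h on a layer of stromal cells. Its 4 groups, with 2 libraries each, were common monocyte progenitors (cMoPs) on OP9-DLL1, cMoPs on OP9, Ly6C+ classical monocytes on OP9-DLL1 and Ly6C+ classical monocytes on OP9. OP9 is a mouse bone marrow stromal line and OP9-DLL1 is a version of it that carries the Notch ligand DLL1, so all groups had stroma and no group was left without it. The labels number the libraries of a group but do not say that they came from separate mice or cultures, so a p-value here is set against the spread between libraries, and that spread may be technical.

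HMG proteins form 3 families. HMGA proteins bind the minor groove of AT-rich DNA through AT-hooks and are typical of embryonic and dividing cells. HMGB proteins bend DNA with HMG boxes, and HMGB1 released from a cell also acts as an alarm signal that Toll-like receptors and the receptor RAGE can read. HMGN proteins bind nucleosomes and compete there with the linker histone H1.

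The libraries held 47316323 to 62459962 reads recovered from the deposited values, and 1 read was worth 0.0151 to 0.0231 CPM. CPM is the read count of a gene scaled by the authors to an effective library size, which differed from the recovered reads. That size was above the recovered reads in each cMoP library (66166902 against 62459962 in cMoP OP9 replicate 1). It was below them in each monocyte library (43312371 against 47316323 in OP9 monocyte replicate 1). Comparisons of CPM between cell types rest on that scaling. The progenitor gene Mpo, which encodes myeloperoxidase, averaged 4838 CPM in cMoPs on OP9-DLL1 and 3902 CPM in cMoPs on OP9, against 16.5 CPM in OP9-DLL1 monocytes and 12.4 CPM in OP9 monocytes. The 6 tested genes of 13 listed OP9 stroma markers had a summed level of 1.08 to 2.62 CPM in OP9-DLL1 cMoP libraries, 0.650 to 1.57 CPM in OP9 cMoP libraries, 4.86 to 19.6 CPM in OP9-DLL1 monocyte libraries and 24.9 to 27.2 CPM in OP9 monocyte libraries. In such bulk samples, fewer cells of a type and less RNA per cell cannot be told apart.

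Promoter sequence was at hand for 6 of the 7 members (RefSeq, build GRCm38.p6, from 250 bases before to 50 bases after the start site). They were searched on both strands for CCAAT, the CCAAT box bound by NF-Y, for TTTGAA, the core of the cell cycle element CHR, for CACGTG, the E-box of the Myc family, and for TTTNNCGC, a form of the E2F element. These letters are present in 37.4%, 17.9%, 7.2% and 5.2% of 32851 mouse promoter windows of the same length, in that order. Both extremes and the Hmgb3 window are shown, because Hmgb2 held the most matches of all members and Hmga1, the member that differed between stromata, held none. Capitals mark CCAAT and, on either strand, TTTGAA. On the opposite strand that motif reads TTCAAA.
Hmga1: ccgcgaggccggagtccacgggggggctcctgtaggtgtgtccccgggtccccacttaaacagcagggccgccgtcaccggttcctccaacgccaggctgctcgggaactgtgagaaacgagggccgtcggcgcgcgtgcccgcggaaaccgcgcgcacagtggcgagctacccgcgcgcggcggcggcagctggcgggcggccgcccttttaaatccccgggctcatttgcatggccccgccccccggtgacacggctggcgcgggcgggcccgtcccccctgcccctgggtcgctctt
Hmgb2: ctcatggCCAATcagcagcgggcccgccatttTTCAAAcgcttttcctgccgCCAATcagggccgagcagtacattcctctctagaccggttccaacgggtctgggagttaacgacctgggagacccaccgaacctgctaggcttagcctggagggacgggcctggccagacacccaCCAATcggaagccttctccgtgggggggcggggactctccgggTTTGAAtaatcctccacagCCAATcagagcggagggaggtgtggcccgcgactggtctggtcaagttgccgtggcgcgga
Hmgb3: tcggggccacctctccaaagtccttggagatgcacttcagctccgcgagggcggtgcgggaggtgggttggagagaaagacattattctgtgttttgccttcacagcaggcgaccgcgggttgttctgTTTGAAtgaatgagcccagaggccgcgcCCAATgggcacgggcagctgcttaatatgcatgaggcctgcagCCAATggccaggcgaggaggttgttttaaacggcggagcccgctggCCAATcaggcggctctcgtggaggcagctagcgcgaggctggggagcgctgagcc
The windows lie at chr17:27556324-27556623 (plus strand), chr8:57511593-57511892 (plus strand) and chrX:71555667-71555966 (plus strand). They follow RefSeq start sites, whereas the gene positions given below are from another annotation, GENCODE, and the 2 can differ. The whole Hmgb2 window lies before the GENCODE start of that gene, 57511907. The Hmgb2 window held 4 CCAAT and 2 TTTGAA matches, and the Hmgb3 window held 3 CCAAT matches and 1 TTTGAA match. The Hmgb1 windows held 3 CCAAT matches and 1 CACGTG match between them, the Hmgn1 window 2 CCAAT matches, and the Hmgn2 window 1 CCAAT and 1 CACGTG match. No window of a member held TTTNNCGC. Hmga1 had 2 overlapping windows, of which the first is shown, and neither held a match of any kind searched. A match is a description of letters and not a sign that a factor binds there, and a window without one says nothing about the factor.

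All 7 members had more CPM in each cMoP library than in any monocyte library on the same stroma, and the largest ratios were those of Hmga1 and Hmgn1. Hmga1 (chromosome 17, 27556497 to 27563674, plus strand, GRCm38) encodes HMGA1, the AT-hook protein of blood progenitors and many tumours. It had 667 and 621 CPM in cMoPs on OP9-DLL1, 653 and 653 CPM in cMoPs on OP9, 54.0 and 55.5 CPM in OP9-DLL1 monocytes, and 150.2 and 132 CPM in OP9 monocytes. The cMoP libraries were alike on both stromata, and the 4 monocyte libraries split by stroma with no overlap, those on OP9-DLL1 being the lower.

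Hmgb1 (chromosome 5, 149046702 to 149184489, minus strand) encodes the most widely expressed HMG-box protein. It had 1979 and 1881 CPM in cMoPs on OP9-DLL1, 1750 and 1873 CPM in cMoPs on OP9, 1018 and 1065 CPM in OP9-DLL1 monocytes, and 1093 and 1224 CPM in OP9 monocytes. Every cMoP library lay above every monocyte library, and within each cell type the 2 stroma groups lay close together without overlapping. Hmgb3 (chromosome X, 71555918 to 71560676, plus strand), an HMG-box gene known from mouse blood stem and progenitor cells, had 58.0 and 53.7 CPM in cMoPs on OP9-DLL1, 56.0 and 60.8 CPM in cMoPs on OP9, 20.97 and 19.4 CPM in OP9-DLL1 monocytes, and 20.0 and 31.5 CPM in OP9 monocytes. Its cMoP libraries did not overlap with its monocyte libraries, and the highest monocyte library was the OP9 replicate 2.

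Hmgb2 (chromosome 8, 57511907 to 57515999, plus strand) encodes the HMG-box protein that is most tied to dividing cells. It had 1714 and 1581 CPM in cMoPs on OP9-DLL1, 1541 and 1563 CPM in cMoPs on OP9, 1152 and 1209 CPM in OP9-DLL1 monocytes, and 625 and 1210 CPM in OP9 monocytes. The OP9 monocyte replicate 1 stood apart at 1.94-fold below its partner, whereas the other 3 groups had replicates within 1.08-fold of each other. The same library was also low for genes of mitosis: 30 such genes summed to 4960 and 4583 CPM in cMoPs on OP9-DLL1, 4387 and 4659 CPM in cMoPs on OP9, 3382 and 3630 CPM in OP9-DLL1 monocytes, and 1910 and 4176 CPM in OP9 monocytes. The part of cell division in the Hmgb2 values was not tested.

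Hmgn1 (chromosome 16, 96120618 to 96127729, minus strand) encodes a nucleosome-binding protein that loosens compact chromatin. It had 83.6 and 153 CPM in cMoPs on OP9-DLL1, 65.6 and 78.3 CPM in cMoPs on OP9, 7.67 and 17.6 CPM in OP9-DLL1 monocytes, and 2.44 and 8.71 CPM in OP9 monocytes. Replicate 2 was above replicate 1 in all 4 groups, by 1.84-fold, 1.19-fold, 2.30-fold and 3.58-fold in the order above, the widest spread between replicates of any member in each group but cMoPs on OP9, where Hmgn3 spread by 1.24-fold. The recovered reads behind the lowest value were 105, so counting error is small beside that spread.

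Hmgn2 (chromosome 4, 133964738 to 133968650, minus strand), the most abundant HMGN gene in these cells, had 1497 and 1310 CPM in cMoPs on OP9-DLL1, 1135 and 1211 CPM in cMoPs on OP9, 461 and 486 CPM in OP9-DLL1 monocytes, and 414 and 498 CPM in OP9 monocytes. The cMoP libraries lay far above the monocyte libraries, the cMoP libraries on OP9-DLL1 lay above those on OP9, and the 2 monocyte groups overlapped. Hmgn3 (chromosome 9, 83109948 to 83146685, minus strand), an HMGN gene known best from nerve and endocrine cells, had 15.9 and 13.8 CPM in cMoPs on OP9-DLL1, 14.0 and 17.4 CPM in cMoPs on OP9, 7.87 and 8.16 CPM in OP9-DLL1 monocytes, and 8.51 and 5.27 CPM in OP9 monocytes. It was the lowest member in cMoPs, and its stroma groups overlapped in both cell types.

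**Figure D1:**
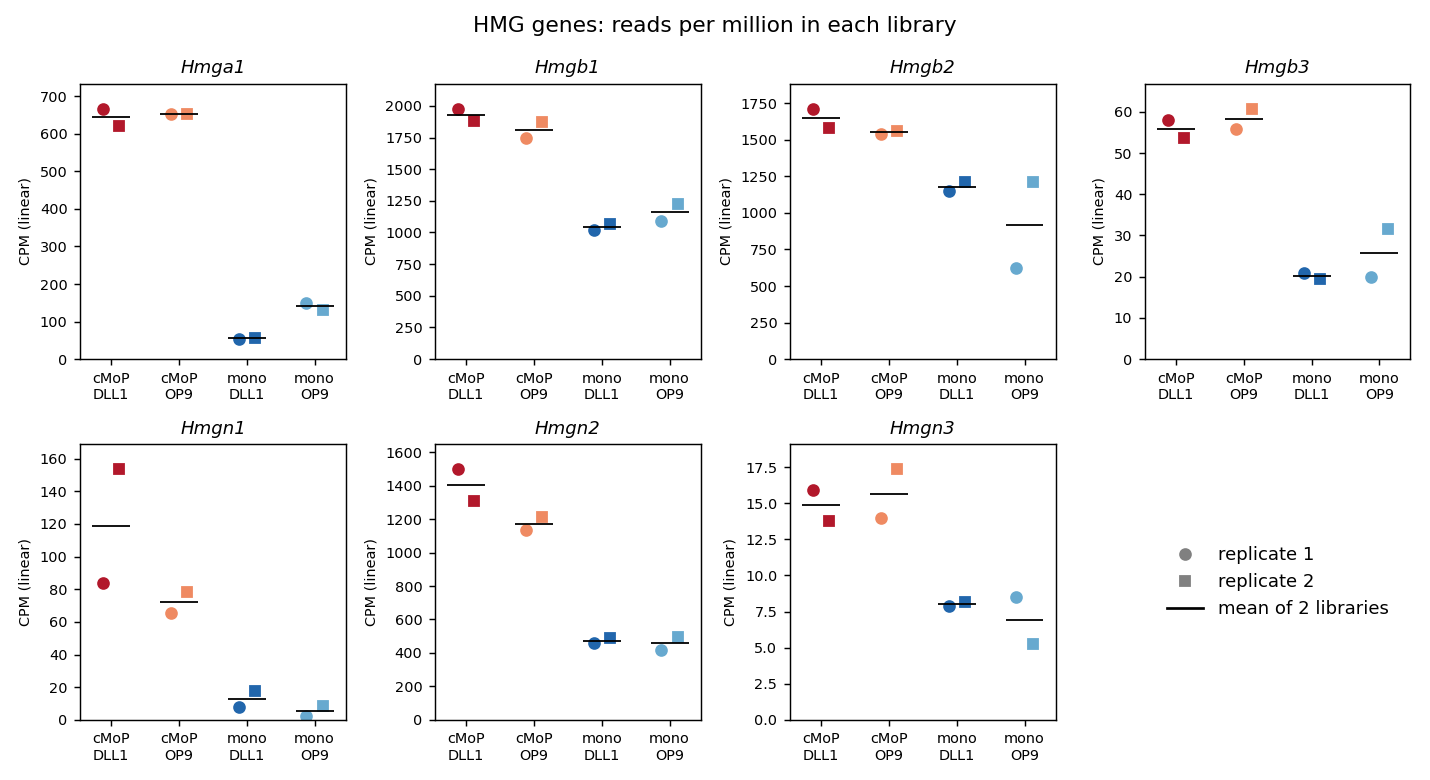
CPM (linear axis, one scale per gene) of the 7 HMG genes in each library, for cMoPs on OP9-DLL1, cMoPs on OP9, monocytes on OP9-DLL1 and monocytes on OP9; circles are replicate 1, squares replicate 2 and bars the mean of 2 libraries. Hmga1 averages 644 and 653 CPM in the cMoP groups, 54.8 CPM in OP9-DLL1 monocytes and 141 CPM in OP9 monocytes, and the 625 CPM of Hmgb2 in OP9 monocyte replicate 1 lies far below its partner.

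To set the members beside each other, their values were divided by the length of their annotated exons (CPM per kb, a level). Hmgb2 led in each group, at 549 ± 31.2 CPM per kb in cMoPs on OP9-DLL1, 517 ± 5.25 in cMoPs on OP9, 393 ± 13.4 in monocytes on OP9-DLL1 and 306 ± 138 in monocytes on OP9 (SD, n = 2 each). In cMoPs on OP9-DLL1 the order of levels was Hmgb2, Hmgn2, Hmgb1, Hmga1, Hmgn1, Hmgb3 and Hmgn3, and only the neighbours Hmgn1 and Hmgb3 overlapped. In cMoPs on OP9 the order was the same but for Hmgb3 standing above Hmgn1, and Hmgn2 and Hmgb1 overlapped. In monocytes on both stromata the order was Hmgb2, Hmgb1, Hmgn2, Hmga1, Hmgb3, Hmgn3 and Hmgn1. The overlapping neighbours were Hmgn3 and Hmgn1 in monocytes on OP9-DLL1, and Hmgb2 and Hmgb1 in monocytes on OP9.

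The summed level of the 7 genes was 1829 and 1701 CPM per kb in cMoPs on OP9-DLL1, 1592 and 1657 in cMoPs on OP9, 778 and 818 in monocytes on OP9-DLL1, and 646 and 891 in monocytes on OP9. Hmga1 made up 17.2% and 17.2% of this sum in cMoPs on OP9-DLL1, 19.3% and 18.5% in cMoPs on OP9, 3.27% and 3.19% in monocytes on OP9-DLL1, and 10.9% and 6.97% in monocytes on OP9. Hmgb2 made up 31.2% and 31.0%, 32.2% and 31.4%, 49.3% and 49.2%, and 32.2% and 45.2% in the same groups. The family was thus larger in CPM per kb in cMoPs, with a larger share of Hmga1 and, on OP9-DLL1, a smaller share of Hmgb2 than in monocytes. Among 13375 genes with a length, Hmga1 ranked 258 by mean CPM per kb in cMoPs on OP9-DLL1, 245 in cMoPs on OP9, 2099 in monocytes on OP9-DLL1 and 1073 in monocytes on OP9.

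**Figure D2:**
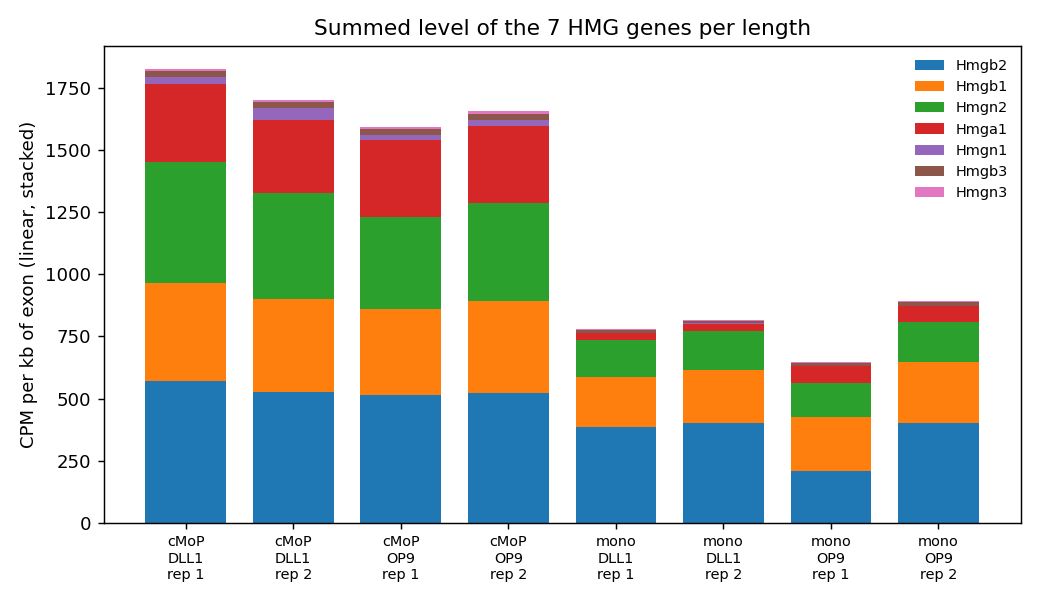
Stacked level of the 7 HMG genes (CPM per kb of exon, linear axis from 0) in each library of the 4 groups, each colour being a gene. The bars reach 1592 to 1829 in cMoPs and 646 to 891 in monocytes, and the Hmga1 layer is thinnest in monocytes on OP9-DLL1.

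The cell types were then compared on each stroma with limma-trend, fitted over all 13374 tested genes with Benjamini-Hochberg adjustment and a threshold of 0.05. On OP9-DLL1, 6 of 7 members rose in cMoPs over monocytes and 0 fell, beside 28.2% of all tested genes that rose and 29.2% that fell. On OP9, all 7 members rose and 0 fell, beside 28.8% of all tested genes that rose and 27.7% that fell. The median log2 fold change of the members, cMoP over monocyte, was 1.47 on OP9-DLL1 and 1.22 on OP9, against -0.01 and 0.01 for all tested genes. The libraries of the 2 comparisons differ, but both use the same estimate of spread.

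Hmga1 had the largest rise on OP9-DLL1, with a log2 fold change of 3.56 ± 0.11 (SE, 11.8-fold, adjusted p = 1.03e-07 by limma-trend), and rose by 2.21 ± 0.11 on OP9 (4.64-fold, adjusted p = 9.15e-07 by limma-trend). By p-value it ranked 9 of the 13374 genes on OP9-DLL1 and 83 on OP9. Hmgn1 rose by 3.28 ± 0.57 on OP9-DLL1 and by 3.96 ± 0.57 on OP9, with wide 95% intervals of 2.0 to 4.57 and 2.68 to 5.24. Hmgn2 rose by 1.57 ± 0.12 on OP9-DLL1 and by 1.37 ± 0.12 on OP9.

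Hmgb3 rose by 1.47 ± 0.20 on OP9-DLL1 and by 1.22 ± 0.20 on OP9, and Hmgb1, with the narrowest error, rose by 0.89 ± 0.10 and 0.65 ± 0.10. Hmgn3 rose by 0.89 ± 0.24 on OP9-DLL1 and by 1.22 ± 0.24 on OP9. Its call on OP9-DLL1 (adjusted p = 0.0120 by limma-trend) ended without cMoP OP9-DLL1 replicate 1 (0.0740) and without monocyte OP9-DLL1 replicate 1 (0.0592).

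Hmgb2 was the member with the weakest separation. Its log2 fold change was 0.84 ± 0.24 on OP9, which passed (adjusted p = 0.0159 by limma-trend), and 0.48 ± 0.24 on OP9-DLL1, which did not (adjusted p = 0.117; 95% interval -0.07 to 1.03), although its cMoP and monocyte libraries did not overlap on either stroma. The OP9-DLL1 value passed when only the 4 libraries of that comparison were fitted (limma-trend adjusted p = 0.000566) and when OP9 monocyte replicate 1 (0.000141) or 2 (0.000148) was left out. The OP9 value passed in 12 of 16 alternative fits, which gave log2 fold changes of 0.36 to 1.31. Those that did not pass included the fit of only its 4 libraries (limma-trend adjusted p = 0.0556) and the fits without cMoP OP9 replicate 1 or 2. In the authors' deposited table, 7 of 7 members passed in each of these comparisons, Hmgb2 on OP9-DLL1 with a log2 fold change of 0.48 and an adjusted p of 0.00937.

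**Figure D3:**
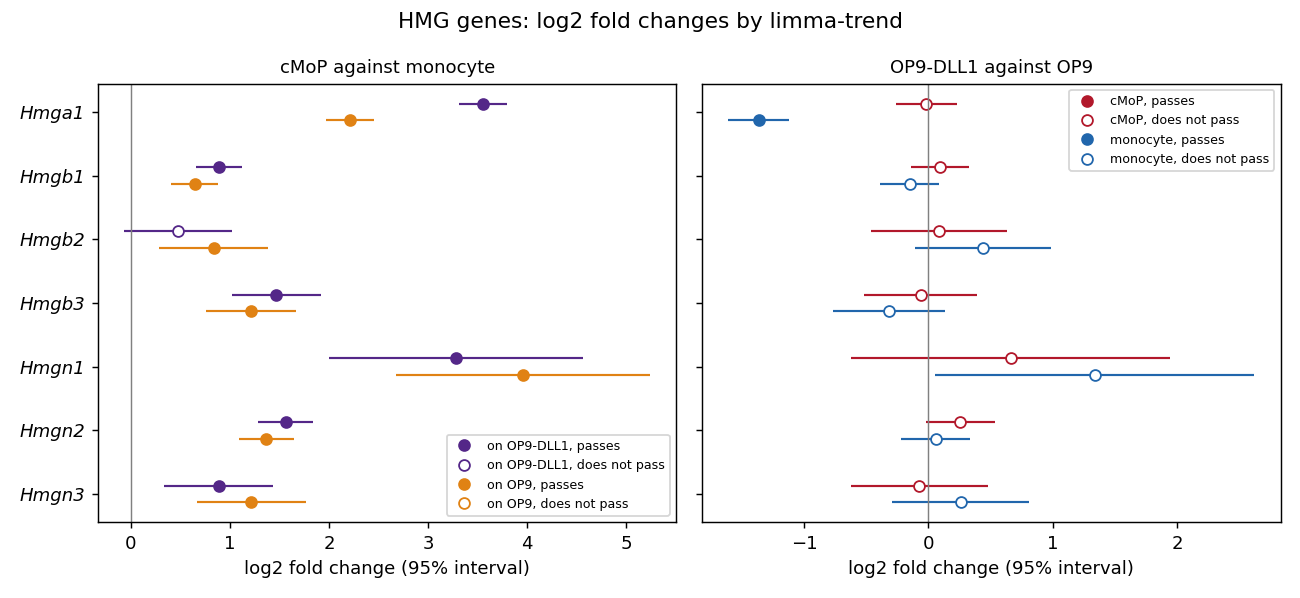
Log2 fold changes of the 7 HMG genes with 95% intervals by limma-trend, for cMoP against monocyte on each stroma (left) and for OP9-DLL1 against OP9 within cMoPs and within monocytes (right); filled points pass an adjusted p of 0.05 and open points do not. All points on the left lie above 0, and on the right only Hmga1 in monocytes, at -1.36, is filled.

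The stroma comparisons set 6 h on OP9-DLL1 against 6 h on OP9. An effect of the Notch ligand cannot be told apart from other differences between the stromal lines. In monocytes on OP9-DLL1 against monocytes on OP9, 1 of 7 members fell and 0 rose, beside 3.03% of all tested genes that fell and 3.36% that rose. The 855 genes called were 52.6% higher ones, or 39.8% of 906 with libraries centred on their medians, and Hmga1 was the member called under both scalings. Hmga1 fell to 54.8 ± 1.05 CPM in OP9-DLL1 monocytes, against 141 ± 12.9 CPM in OP9 monocytes (SD, n = 2 each), a log2 fold change of -1.36 ± 0.11 or 2.57-fold lower (adjusted p = 0.000445 by limma-trend; rank 13 of 13374 by p). The call held in all 16 alternative fits, which gave log2 fold changes of -1.46 to -1.27 and adjusted p-values of 6.11e-05 to 0.0190. The authors' deposited table gives the same contrast, turned to OP9-DLL1 over OP9, as -1.36 with an adjusted p of 0.000258.

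The 2 tested megakaryocyte genes of 4 listed, Pf4 and Ppbp, also fell in monocytes, with a summed level of 22.2 and 12.7 CPM in OP9-DLL1 monocyte libraries, against 113 and 195 CPM in OP9 monocyte libraries. In cMoP libraries that sum was 0.650 to 2.04 CPM. Itga2b and Gp9 were not tested. The summed stroma markers given above were also lower in monocytes on OP9-DLL1, although Pdgfrb, 1 of the 6, rose there (3.57 CPM on OP9-DLL1, against 0.124 CPM on OP9; adjusted p = 0.0119 by limma-trend). Of the other marker lists, 1 of 9 progenitor genes rose in monocytes on OP9-DLL1 over OP9, Ms4a3 (14.9 CPM on OP9-DLL1, against 3.28 CPM on OP9; adjusted p = 0.00128 by limma-trend), while the list summed to 251 to 303 CPM on OP9-DLL1, against 175 to 292 CPM on OP9. Of 9 classical monocyte genes, Csf1r rose and Fn1 and F13a1 fell, and the list summed to 7074 to 9281 CPM on OP9-DLL1, against 9319 to 9789 CPM on OP9. Csf3r, 1 of 8 neutrophil genes, rose (log2 fold change 1.004, adjusted p = 0.00779 by limma-trend), and that list summed to 683 to 1077 CPM on OP9-DLL1, against 815 to 888 CPM on OP9. The dendritic cell gene Batf3, 1 of 2 tested of 6 listed, also rose (3.96 CPM on OP9-DLL1, against 0.497 CPM on OP9; adjusted p = 0.0288 by limma-trend). The few tested erythroid, B cell, T cell and NK cell markers did not pass. The part of any of these in the Hmga1 result was not tested.

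The other 6 members did not pass in monocytes when all libraries were fitted without a replicate block. Hmgn1 had a log2 fold change of 1.33 ± 0.57 (12.6 ± 7.03 CPM on OP9-DLL1, against 5.57 ± 4.44 CPM on OP9; adjusted p = 0.210 by limma-trend), and its groups overlapped. Its log2 fold change was 0.42 without OP9 replicate 1 and 2.25 without OP9 replicate 2, where it passed with 1 library left in the group. With a replicate block Hmgn1 also passed, as given in the closing section, but the replicate numbers were not taken as pairs. Hmgb2 had a log2 fold change of 0.44 ± 0.24, which was -0.04 without OP9 replicate 1 and 0.92 (limma-trend adjusted p = 0.000235) without OP9 replicate 2. Hmgb3 had -0.32 ± 0.20, which was -0.64 (adjusted p = 0.0236) without OP9 replicate 1 and 0.01 without OP9 replicate 2. For these members, 1 of the 2 OP9 monocyte libraries decided the value. Hmgb1 had -0.15 ± 0.10, Hmgn2 0.06 ± 0.12 and Hmgn3 0.26 ± 0.24.

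In cMoPs on OP9-DLL1 against cMoPs on OP9, 0 of 7 members passed by limma-trend, 0 had an unadjusted p under 0.05 and 0 passed by limma voom, beside 0.770% of all tested genes that changed. The nearest was Hmgn2, with 1403 ± 133 CPM on OP9-DLL1, against 1173 ± 54.0 CPM on OP9 (SD, n = 2 each), a log2 fold change of 0.26 ± 0.12 with an adjusted p of 0.578 by limma-trend. Hmga1 had a log2 fold change of -0.02 ± 0.11, with a 95% interval of -0.26 to 0.23 that does not reach the fall seen in monocytes. Hmgn1 had 0.66 ± 0.57, with a 95% interval of -0.62 to 1.94. The remaining 4 members lay between -0.07 and 0.09.

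The difference of the stroma responses, cMoP minus monocyte, was tested directly. Of 7 members 1 passed, Hmga1, beside 0.0523% of all tested genes. Its difference was 1.34 ± 0.15 on the log2 scale (95% interval 0.996 to 1.69, adjusted p = 0.0252 by limma-trend; rank 5 of 13374 by p), from -0.02 in cMoPs and -1.36 in monocytes. The comparison has few calls in all, 7 genes. The Hmga1 call ended in 6 of 8 fits with a library left out, those without any cMoP library or any OP9-DLL1 monocyte library (adjusted p = 0.177 to 0.286 by limma-trend), and held without OP9 monocyte replicate 1 (0.00409) or 2 (0.00117). The difference itself stayed between 1.25 and 1.44 in all 8. For Hmgb2 the difference was -0.36 ± 0.34, and without OP9 monocyte replicate 2 it was -0.83 with an adjusted p of 0.00445 by limma-trend.

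Several members share long stretches of sequence with other genes, so reads can be split between them, and a gene and its copy are uncertain to that extent. Transcripts of the annotation matched the members at 95% identity or more over at least 150 bases in 68 other genes, of which 38 had a row in the table. Hmgb1 had 45 such copies, 44 of them pseudogenes and 25 in the table, Hmgn2 had 12 (8 in the table), Hmgb2 5 (3 in the table), Hmgn1 4 (0 in the table), Hmga1 1, Hmgb3 1 and Hmgn3 0. Within a library, the copies in the table summed to 5.70% to 9.70% of the CPM of Hmgb1, 6.97% to 8.84% of Hmgn2, 2.29% to 2.90% of Hmgb2, 3.57% to 7.05% of Hmgb3 and 3.94% to 7.77% of Hmga1. Adding their reads to the member, an alternative chosen after seeing the data, left each member on its side of the threshold in all 5 comparisons.

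Hmga1b, on chromosome 11 at 120762794 to 120764419, is an annotated protein-coding gene 99.8% identical to Hmga1 over 1538 bases. It had 26.3 and 27.0 CPM in cMoPs on OP9-DLL1, 27.4 and 30.4 CPM in cMoPs on OP9, 3.13 and 3.37 CPM in OP9-DLL1 monocytes, and 11.7 and 7.93 CPM in OP9 monocytes. It followed Hmga1 in each group and fell in monocytes on OP9-DLL1 with a log2 fold change of -1.57 ± 0.21 (adjusted p = 0.00375 by limma-trend), while its difference of responses of 1.45 ± 0.29 did not pass (adjusted p = 0.180). At that identity, reads of Hmga1 and Hmga1b cannot be told apart with certainty. With their reads summed, Hmga1 had a log2 fold change of -1.38 in monocytes on OP9-DLL1 against OP9.

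Most copies had the same direction as their member between cell types. All 3 tested copies of Hmgb2 were lowest in OP9 monocyte replicate 1, and the most abundant, Gm4739, had 25.8 and 26.7 CPM in OP9-DLL1 monocytes and 13.4 and 28.4 CPM in OP9 monocytes. Of the 8 Hmgn2 copies 7 rose in cMoPs on both stromata. Of the 25 Hmgb1 copies 3 rose on both stromata and 2 fell on both, Hmgb1-ps5 and Hmgb1-ps8. Hmgb1-ps5, which lies inside the cathepsin gene Ctss on chromosome 3, had 3.03 and 2.05 CPM in cMoPs on OP9-DLL1, 2.23 and 2.51 CPM in cMoPs on OP9, 14.0 and 11.2 CPM in OP9-DLL1 monocytes, and 10.98 and 10.4 CPM in OP9 monocytes. Hmgb1-ps8, which overlaps Raet1e and H60b on chromosome 10, had log2 fold changes of -1.93 ± 0.30 on OP9-DLL1 and -2.04 ± 0.30 on OP9. These 2 were singled out after their values were seen, and which gene their reads come from was not tested.

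**Figure D4:**
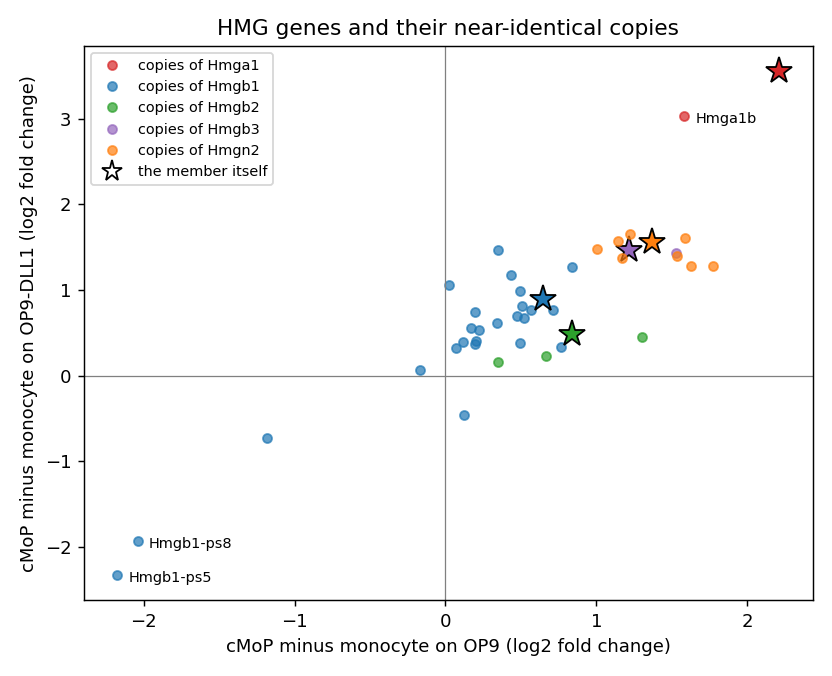
Log2 fold change of cMoP minus monocyte on OP9 (horizontal) and on OP9-DLL1 (vertical) for 5 HMG genes (stars) and their 38 near-identical copies in the table (dots, coloured by the gene they resemble). Copies of Hmgn2 cluster round their star, Hmga1b lies below Hmga1, and Hmgb1-ps5 and Hmgb1-ps8 lie on the opposite side of 0 from Hmgb1.

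The library kit does not mark strand, so overlapping genes are a second source of shared reads. Hmga1 shares 102 exon bases with AI413582, which is in the table, and 22 with Gm49774, both on the other strand. Hmgb1 shares 42 with Uspl1, also in the table, on the other strand and 37 with Mm2pr on its own strand. Hmgn3 shares 255 exon bases with Gm29054 and 30 with Gm2065, both on the other strand. Hmgb2, Hmgb3, Hmgn1 and Hmgn2 share none.

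A list of histone chaperones, which load and remove histones, and of SET complex and related genes gave the same direction. Not all of its genes encode chaperones. Of 20 tested, 16 rose in cMoPs over monocytes on OP9-DLL1, beside 28.2% of all tested genes, and 18 on OP9, beside 28.8%. On both stromata 0 fell, and the median log2 fold changes were 1.31 and 1.38 beside -0.01 and 0.01 over all tested genes. Chaf1b, a subunit of the replication-coupled chaperone CAF-1, rose by 3.36 ± 0.14 on OP9-DLL1 and 2.98 ± 0.14 on OP9. Set, whose protein partners HMGB2 in the SET complex, rose by 2.66 ± 0.11 and 2.01 ± 0.11, and Npm1, the nucleolar chaperone nucleophosmin, by 2.94 ± 0.15 and 2.60 ± 0.15. In monocytes on OP9-DLL1 against OP9, 2 of the 20 fell, beside 3.03% of all tested genes that fell. They were Set, with a log2 fold change of -0.61 ± 0.11 (adjusted p = 0.0123 by limma-trend), and Nme1, a nuclease of the SET complex, with one of -0.72 ± 0.14 (adjusted p = 0.0181).

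Genes of division give the setting for HMGA1 and HMGB2, which dividing cells express. All 29 tested DNA replication genes rose in cMoPs on both stromata, with median log2 fold changes of 2.76 on OP9-DLL1 and 2.82 on OP9. The helicase subunit gene Mcm7 rose by 3.35 ± 0.14 and 3.21 ± 0.14, Mcm2 by 3.83 ± 0.16 and 3.47 ± 0.16, and the loading factor gene Cdc6 by 3.68 ± 0.17 and 3.72 ± 0.17. Of 30 mitosis genes, 9 rose and 1 fell in cMoPs on OP9-DLL1, a share close to the 28.2% of all tested genes that rose there, and 15 rose and 0 fell on OP9, beside 28.8% of all tested genes that rose. Their median log2 fold changes were 0.50 and 0.65. Mad2l1, of the spindle checkpoint, rose by 1.48 ± 0.30 and 1.65 ± 0.30, Aurkb by 1.18 ± 0.29 and 1.48 ± 0.29, and Bub1 by 1.08 ± 0.27 and 1.17 ± 0.27. In monocytes on OP9-DLL1 against OP9, 0 of 29 replication genes and 0 of 30 mitosis genes passed by limma-trend or by limma voom. Beside them, 3.36% of all tested genes rose and 3.03% fell by limma-trend. In the 2 lists, 4 and 1 genes had an unadjusted p under 0.05, and the median log2 fold changes were 0.23 and 0.30. The part of cell division in the Hmga1 result was not tested.

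The other HMG and HMG-box genes did not share one direction. Of 28 listed, 17 were tested, and 8 rose and 4 fell in cMoPs on OP9-DLL1, against 7 and 4 on OP9. Beside them, 28.2% of all tested genes rose and 29.2% fell on OP9-DLL1, and 28.8% rose and 27.7% fell on OP9. The median log2 fold changes of the list were 0.07 and 0.21. Ssrp1, an HMG-box subunit of the FACT chaperone and also in the chaperone list, rose by 1.51 ± 0.13 on OP9-DLL1 and 1.497 ± 0.13 on OP9. Sox4, a progenitor transcription factor, rose by 4.21 ± 0.39 and 4.29 ± 0.39, and Hmgn5, named here because it is the HMGN gene outside the 7, by 0.60 ± 0.11 and 0.88 ± 0.11. Tcf7l2, an HMG-box factor of the Wnt pathway, fell by 3.17 ± 0.14 on OP9-DLL1 and 2.22 ± 0.14 on OP9 on the log2 scale. It was the 1 gene of this list to pass between stromata in monocytes, beside 3.36% of all tested genes that rose. Tcf7l2 had 156 CPM on OP9-DLL1, against 83.5 CPM on OP9 (log2 fold change 0.90 ± 0.14, adjusted p = 0.00742 by limma-trend), the opposite direction to Hmga1.

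Linker histones, which HMGN proteins displace, were listed under older and newer symbols for 7 distinct genes, of which 6 were tested. In cMoPs over monocytes, 1 rose and 2 fell on OP9-DLL1, beside 28.2% of all tested genes that rose and 29.2% that fell. On OP9, 2 rose and 1 fell, beside 28.8% that rose and 27.7% that fell. H1f0, the linker histone of resting and differentiated cells, fell with log2 fold changes of -2.11 ± 0.16 on OP9-DLL1 and -2.22 ± 0.16 on OP9. H1f1 rose by 1.31 ± 0.36 and 2.38 ± 0.36. In monocytes on OP9-DLL1 over OP9, 1 of the 6 rose, H1f2, beside 3.36% of all tested genes that rose. H1f2 had 72.8 ± 19.5 CPM on OP9-DLL1, against 18.5 ± 10.8 CPM on OP9 (SD, n = 2 each). Its log2 fold change was 2.08 ± 0.39 (adjusted p = 0.0173 by limma-trend).

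Most tested receptors and partners of extracellular HMGB1 were lower in cMoPs than in monocytes, whereas Hmgb1 itself rose. Of 14 tested genes, 9 fell and 1 rose in cMoPs on OP9-DLL1, and 10 fell and 1 rose on OP9, beside 29.2% and 27.7% of all tested genes that fell, with median log2 fold changes of -2.04 and -1.70. Ly96, which encodes the MD-2 partner of Toll-like receptor 4, had -2.89 ± 0.18 on OP9-DLL1 and -3.16 ± 0.18 on OP9. Tlr2 had -2.28 ± 0.15 and -2.26 ± 0.15, and Havcr2, the gene of TIM-3, had -6.59 ± 0.54 and -4.92 ± 0.54. Cxcl12, 1 of the 14, is also in the stroma marker list. In monocytes on OP9-DLL1 over OP9, 4 of the 14 rose, beside 3.36% of all tested genes that rose. They were the adaptor gene Myd88 with a log2 fold change of 0.75 ± 0.15 (adjusted p = 0.0217 by limma-trend), the inhibitory receptor gene Siglecg with 2.06 ± 0.42 (0.0223), the CXCL12 receptor gene Cxcr4 with 1.86 ± 0.38 (0.0244) and Havcr2 with 2.28 ± 0.54 (0.0406). Between stromata in cMoPs, 0 genes of these 6 lists passed by limma-trend or by limma voom, and 0 to 5 genes a list had an unadjusted p under 0.05.

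**Figure D5:**
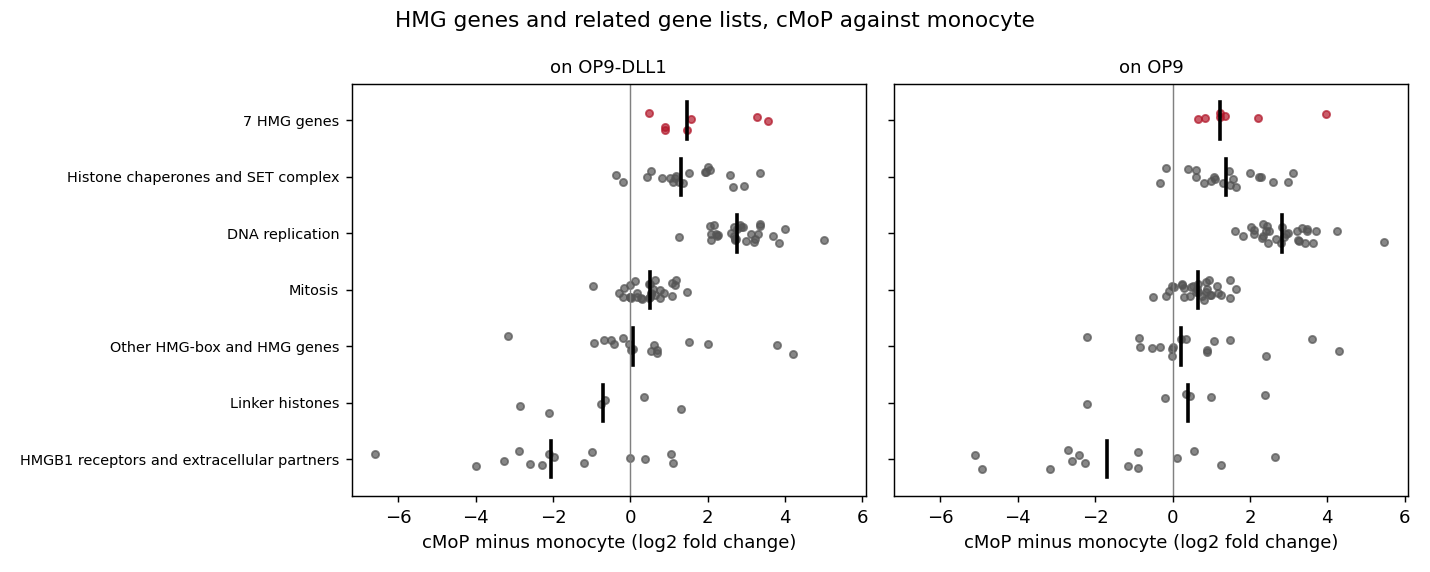
Log2 fold change of cMoP minus monocyte on OP9-DLL1 (left) and on OP9 (right) for the 7 HMG genes (red) and the tested genes of 6 related lists (grey), with black bars at the medians and points spread vertically for legibility. The HMG genes lie between 0.48 and 3.96, replication genes lie higher with medians of 2.76 and 2.82, and HMGB1 receptors lie mostly below 0.

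Other genes with a like pattern were found by the root-mean-square difference between their 8 log2 CPM values and the member's, each centred on its own mean. Klk8, a peptidase gene, and Ifrd2 were closest to Hmga1, at 0.12 and 0.13 log2 units over the 8 libraries. Ifrd2 averaged 151 CPM in cMoPs on OP9-DLL1, 165 CPM in cMoPs on OP9, 15.8 CPM in OP9-DLL1 monocytes and 33.8 CPM in OP9 monocytes. The centromere histone chaperone gene Hjurp and the condensin gene Ncapd3 were closest to Hmgb2, both at 0.08. Cdk2 (0.06) and Nup93 (0.08) were closest to Hmgn2, Tgds (0.05) and Prpf38a (0.06) to Hmgb1, and Strap (0.06) and Thyn1 (0.08) to Hmgb3. Gsto1 and Cipc were closest to Hmgn3, at 0.12 each. The genes nearest to Hmgn1, Nudt19 and Gria3, differed from it by more, 0.35 and 0.38.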

How the data were processed

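RNA was measured in 8 libraries of cMoPs and Ly6C+ monocytes, prepared per the labels' protocols with a low-input kit that does not mark strand. The submitters' processing notes name the build mm10 and, with no roles given, limma, edgeR, Salmon 1.5.2, STAR 2.7.9a and Subread featureCounts 2.0.3. The authors deposited 1 table with log2 CPM values per library, and with their log2 fold changes and adjusted p-values per contrast, per the file headers. Of its 13430 rows, 42 repeats of a gene identifier were dropped. The log2 values, deposited by the authors, were turned back into reads (100.0% whole within 0.001), with 0.5 reads added by the authors in each value.

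The members, gene lists and markers were chosen with earlier results of these data known. Tested genes (13374, with 14 left out) reached 1 CPM in no fewer than 2 libraries and were compared by limma-trend (limma 3.58.1, R 4.3.3), two-sided, on the authors' deposited log2 CPM, in a single fit of the 4 group means to the 8 libraries with 4 residual degrees of freedom, on Benjamini-Hochberg adjusted p under 0.05. SE is the moderated standard error, and intervals are 95% ones. The fit was tested on simulated data. Counting error alone is small for the 7 members at these depths of 47316323 to 62459962 reads, and PCR reads are not independent molecules. It is larger for genes with few reads, such as the stroma marker Pdgfrb at 0.124 CPM in OP9 monocytes.

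From each list, up to 3 genes were named by smallest adjusted p among those passing on both stromata in the same direction, and up to 2 per stroma comparison among those passing. Between stromata, Cxcr4, Havcr2 and the markers that passed were named after their values were seen. The 2 genes most like each member were named with members and predicted models left out. Lengths are the union of annotated exons (GENCODE M21, GRCm38), which may not be the authors' annotation, and copies were found with blastn 2.17.0. Alternatives were voom on recovered reads, no filter, log2(CPM + 1), median centring, no mean-variance trend, only the 4 libraries compared, a replicate block, each library left out, and copies summed.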

Additional observations from a re-analysis of the deposited data

Results flagged for a closer look

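The response of Hmga1 to OP9-DLL1 differed between the cell types by a test of the difference itself. The log2 fold change of OP9-DLL1 over OP9 was -0.02 in cMoPs and -1.36 in monocytes, and the difference, cMoP minus monocyte, was 1.34 (adjusted p = 0.0252 by limma-trend). It did not pass in 6 of 8 fits with a library left out (adjusted p = 0.177 to 0.286 by limma-trend), nor with no mean-variance trend (0.229). Both monocyte libraries on OP9-DLL1 (54.0 and 55.5 CPM) lay below both on OP9 (150.2 and 132 CPM), while the cMoP groups overlapped. No sample could be weighed as an outlier, since groups of 2 are too small for that.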

How the results depend on the processing

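Between cell types, the counts of members and of all genes called stayed within 1.5 times in every alternative. Between stromata in cMoPs, the 103 genes called became 64 by voom, 37 with no mean-variance trend, 315 with only the 4 libraries, and 31 to 308 with a library left out, while 0 members passed in any of them. Between stromata in monocytes, the 855 genes called became 248 with no trend, 306 with only the 4 libraries and 164 to 2488 with a library left out, and the 1 member called became 1 to 3. For the difference of responses, the 7 genes called became 24 on log2(CPM + 1), 1 with no trend and 0 to 1124 with a library left out, and the 1 member became 0 with no trend and 0 to 2 with a library left out. Where 0 genes passed, 788 to 1076 still had an unadjusted p under 0.05. The labels share replicate numbers across groups, but the differences between replicates correlated by only 0.0227 to 0.0891 between groups, so the numbers were not taken as pairs. With a replicate block, the calls were 156 in cMoPs, 1058 in monocytes and 11 for the difference, and 2 members passed in monocytes, Hmgn1 being added (adjusted p = 0.0311 by limma-trend). The replicate block changed no other call of a member.

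Of 553 values of single members under an alternative, 520 kept their direction and their side of the threshold, 13 lost the call, 8 gained it and 12 turned sign. None of the 12 passed. With a library left out, the log2 fold change of OP9-DLL1 over OP9 in cMoPs was -0.0705 to 0.0326 for Hmga1 and -0.228 to 0.0833 for Hmgn3. In monocytes it was -0.0355 to 0.917 for Hmgb2, -0.644 to 0.0117 for Hmgb3, -0.0738 to 0.191 for Hmgn2 and -0.0860 to 0.604 for Hmgn3. Median centring gave -0.0212 for Hmgn2 there. The difference of responses was -0.832 to 0.121 for Hmgb2, -0.0746 to 0.581 for Hmgb3, -1.59 to 0.245 for Hmgn1 and -0.676 to 0.0140 for Hmgn3. In monocytes and for the difference, the turns came without OP9 monocyte replicate 1 for Hmgb2, Hmgn2 and Hmgn1 and without OP9 monocyte replicate 2 for Hmgb3 and Hmgn3. The cause was not tested. With 1 library left in a group, that library is assumed to vary like the others. With all libraries fitted, 2 a group, the difference seen for Hmgb2 between stromata in monocytes could not be told from the spread between replicates. The same held for Hmgn1 when all libraries were fitted without a block.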
